A study of Mus musculus with 9 samples.

Results

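The natural anticoagulants are plasma and cell-surface proteins that stop blood clotting, and several of them are the proteins through which heparin-like drugs act. Their 9 genes were taken by name from a table of 34745 mouse genes: Serpinc1, Serpind1, Serpina10, Proc, Pros1, Thbd, Procr, Tfpi and F3. The last, tissue factor, is the trigger of clotting that Tfpi restrains. All 9 were in the table, and all 9 were among the 13701 genes with enough counts to be tested. They were measured by RNA sequencing of C57BL/6 mouse livers, with 3 libraries in each of 3 groups. The sulodexide group drank thioacetamide (TAA), a liver toxin used to produce fibrosis, at 400 mg/L for 16 weeks and received sulodexide each day for the last 4 weeks, from week 13. The vehicle group had the same TAA exposure with daily vehicle in place of the drug, and the control group is labelled control only. The labels do not say whether the controls received vehicle, so TAA and vehicle cannot be told apart in comparisons with them. Sulodexide dose, sex and age are not stated in the labels. Nor do they tie the libraries to different animals, and the p-values cover only library-to-library spread, which may be technical. Sulodexide is a mixture of a heparin fraction and dermatan sulfate.

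In the circulation, antithrombin (Serpinc1) inactivates thrombin and factor Xa and is greatly accelerated by heparin, and heparin cofactor II (Serpind1) inactivates thrombin and is accelerated by dermatan sulfate as well as heparin. A further arm runs through protein C (Proc), a zymogen that thrombin activates when it is held by thrombomodulin (Thbd) next to the endothelial protein C receptor (Procr) on vessel walls. Activated protein C then destroys clotting cofactors with the help of protein S (Pros1). Hepatocytes make most plasma antithrombin, heparin cofactor II and protein C, while Thbd, Procr and Tfpi are known mainly from endothelium.

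Library totals ran from 15031275 to 16655951 counts with sulodexide, from 14386196 to 15959865 with vehicle and from 13803697 to 14974495 in controls. Levels are in CPM, read counts relative to library size, scaled with TMM factors that correct for differences in RNA composition. These factors were 1.01 to 1.04 with sulodexide, 1.08 to 1.19 with vehicle and 0.821 to 0.919 in controls, so scaling bears on every comparison with controls. Fold changes are fitted log2 values with a standard error (SE) or a 95% interval, and a gene is said to have risen or fallen where edgeR's quasi-likelihood test gave an adjusted p below 0.05 over all tested genes. The 12 hepatocyte markers were at high levels, as the liver label says, with summed values of 116100 to 138900 CPM under sulodexide, 108500 to 133100 under vehicle and 122400 to 153900 in controls. In whole liver, fewer cells of a type and less RNA per cell cannot be told apart.

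Deposited FPKM, which divide counts by gene length, placed the 9 genes in a liver-made group and a scarce group. In control livers Proc averaged 281 ± 20.8, Serpind1 170 ± 7.93, Serpinc1 136 ± 12.0, Serpina10 70.2 ± 7.19 and Pros1 12.4 ± 0.432 FPKM (SD, n = 3). The remaining genes were far below these, with Thbd at 1.32 ± 0.263, F3 at 0.869 ± 0.470, Tfpi at 0.507 ± 0.127 and Procr at 0.227 ± 0.088 FPKM. The gap was narrower with vehicle, where Pros1 had 9.93 ± 1.60 and Thbd 5.76 ± 1.25 FPKM. In controls the order within each part is less firm than the gap between them, since it depends on the lengths used. The length behind the FPKM of Serpinc1 was 10752 bases and that behind Tfpi 11764 bases. Their longest principal transcripts in GENCODE M21 have 4970 and 2027 bases. With those transcript lengths in place of the deposited ones, an alternative chosen after seeing the data, Serpind1, Serpinc1 and Proc lay at 297 ± 13.8, 295 ± 25.9 and 279 ± 20.7 FPKM in controls, and neighbours in this order overlapped. By that measure Serpinc1 was the most abundant of the 9 with sulodexide (274 ± 11.1) and with vehicle (254 ± 26.1). With vehicle Thbd, at 5.76 ± 1.25, was above Tfpi at 3.48 ± 1.35 and F3 at 2.08 ± 0.465. In controls Thbd, at 1.32 ± 0.263, was below Tfpi at 2.94 ± 0.739 and overlapped F3 at 1.56 ± 0.844.

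**Figure D1:**
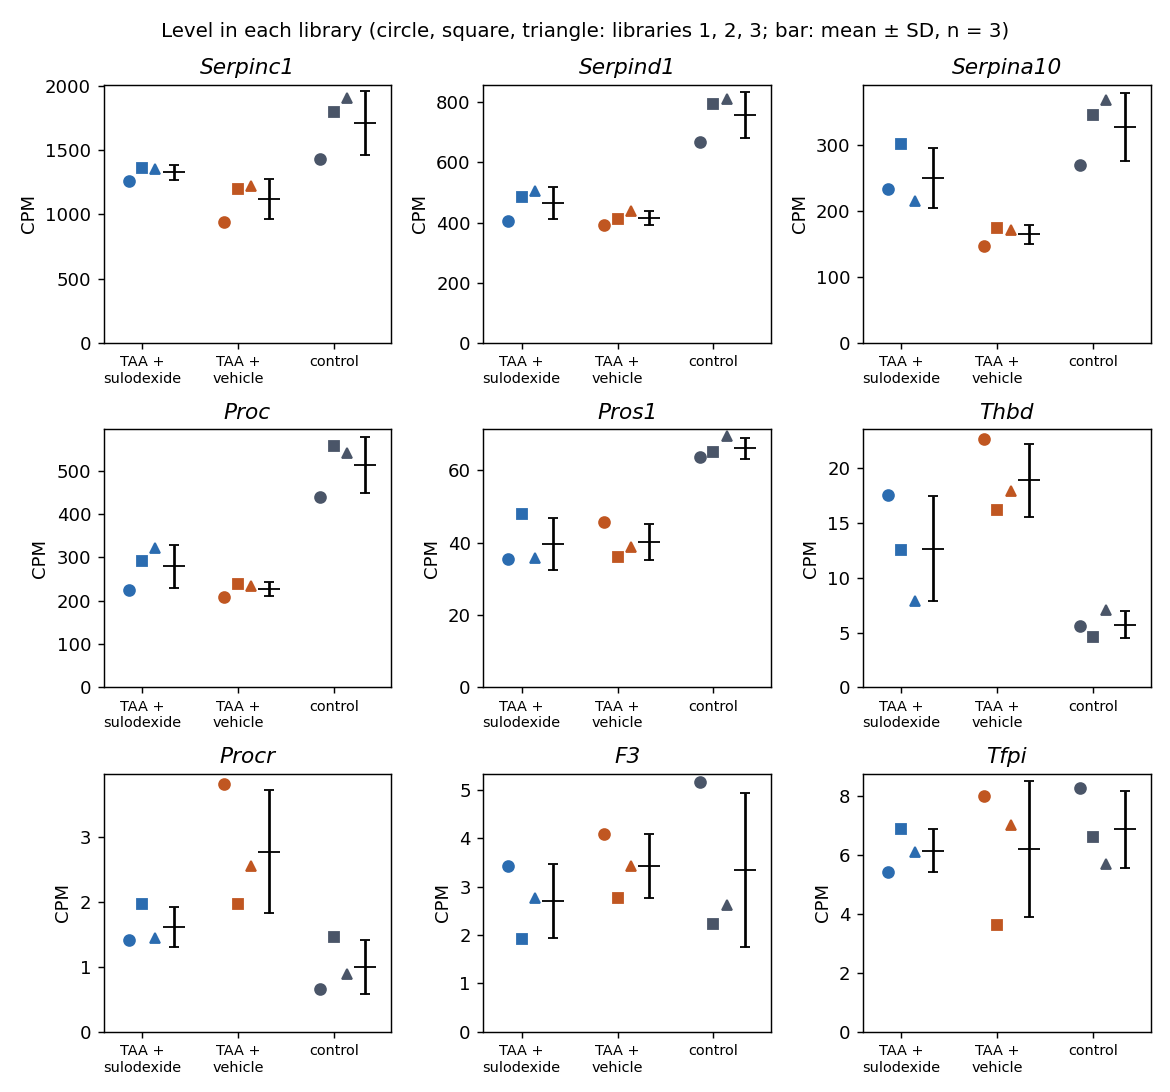
CPM (vertical axes, each from 0) of the 9 genes in each library of the TAA with sulodexide, TAA with vehicle and control groups, with mean and SD of 3 libraries beside the points. The 5 liver-made genes (Serpinc1, Serpind1, Serpina10, Proc, Pros1) are lower with vehicle than in controls, Thbd and Procr are higher, and F3 and Tfpi overlap between all groups.

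Livers given TAA with vehicle were first compared with control livers. The 5 genes for plasma proteins made by hepatocytes all fell, Thbd and Procr rose, and F3 and Tfpi did not pass the test. Of the 9 genes 7 were called, 2 higher and 5 lower, where 43.4% of all tested genes were called, 23.1% higher and 20.4% lower. The median log2 change of the 9 was -0.61, against 0.01 over all tested genes. All 7 called genes, and no other member, had libraries that did not overlap between the groups, which held for 56.8% of tested genes. The mitochondrial share of counts also differed without overlap, at 4.79% to 6.52% with vehicle and 9.89% to 10.9% in controls, and its part in these results was not tested.

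The protein C pathway moved in opposite directions at its 2 ends. Proc (ENSMUSG00000024386, GRCm38 chromosome 18, 32123129 to 32139570, minus strand) had 209, 238 and 235 CPM in vehicle libraries 1 to 3, against 440.4, 558 and 542 CPM in control libraries 1 to 3. Every vehicle library was below every control library, and the fitted level was 0.443 times that of controls (95% interval 0.350 to 0.560; edgeR adjusted p = 0.000174). Pros1 (ENSMUSG00000022912, chromosome 16, 62854307 to 62929346, plus strand), which endothelial cells also make, had 45.6, 35.9 and 38.8 CPM with vehicle and 63.8, 65.0 and 69.5 CPM in controls. The groups did not overlap, and Pros1 fell to 0.607 times the control level (0.487 to 0.758; adjusted p = 0.00243). On the receptor side, Thbd (ENSMUSG00000074743, chromosome 2, 148404466 to 148408188, minus strand) had 22.6, 16.2 and 17.9 CPM with vehicle and 5.60, 4.56 and 7.02 CPM in controls. It rose 3.29-fold (2.15 to 5.05; adjusted p = 0.000707), the largest rise among the 9 genes. Procr (ENSMUSG00000027611, chromosome 2, 155751117 to 155755471, plus strand) is scarce in bulk liver, with 71, 32 and 44 counts in the vehicle libraries and 9, 17 and 11 counts in the control libraries. Its levels were 3.82, 1.97 and 2.55 CPM with vehicle and 0.654, 1.46 and 0.898 CPM in controls, without overlap, and it rose 2.78-fold (1.54 to 5.03; adjusted p = 0.01). Vehicle library 1 was the highest of its group for both receptors.

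All 3 serpins fell. The heparin cofactor II gene Serpind1 (ENSMUSG00000022766, chromosome 16, 17331371 to 17343575, plus strand) had 393, 412 and 439 CPM with vehicle and 669, 796 and 809.9 CPM in controls. Its groups were well apart, and it fell to 0.547 times the control level (0.447 to 0.668; adjusted p = 0.000421). Antithrombin, Serpinc1 (ENSMUSG00000026715, chromosome 1, 160978585 to 161005863, plus strand), had 940.1, 1195 and 1223 CPM with vehicle and 1436, 1796 and 1905 CPM in controls. It lay nearest to controls of the 5, at 0.654 times the control level (0.520 to 0.822; adjusted p = 0.00703) and fell, with the highest vehicle library under the lowest control library. Exons of Serpinc1 overlap those of Zbtb37 on the opposite strand by 2942 bases, and Zbtb37 had 733 counts over all 9 libraries where single libraries had 17489 or more for Serpinc1. Serpina10 (ENSMUSG00000061947, chromosome 12, 103614786 to 103631444, minus strand), the protein Z-dependent inhibitor of factor Xa, had 148, 175 and 172 CPM with vehicle and 270.2, 346 and 369 CPM in controls. It fell to 0.501 times the control level (0.391 to 0.642; adjusted p = 0.000682), with no overlap.

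The initiation arm did not pass the test in either direction. F3 (ENSMUSG00000028128, chromosome 3, 121723537 to 121735048, plus strand) had 4.09, 2.76 and 3.42 CPM with vehicle and 5.16, 2.24 and 2.61 CPM in controls, and control library 1 lay above all others. Its fold was 1.02 with an interval from 0.600 to 1.74 (adjusted p = 0.953). Tfpi (ENSMUSG00000027082, chromosome 2, 84432855 to 84476775, minus strand) had 8.01, 3.62 and 7.02 CPM with vehicle and 8.29, 6.63 and 5.71 CPM in controls. The fold was 0.905, from 0.593 to 1.38 (adjusted p = 0.702). Libraries of both genes overlapped between the groups.

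**Figure D2:**
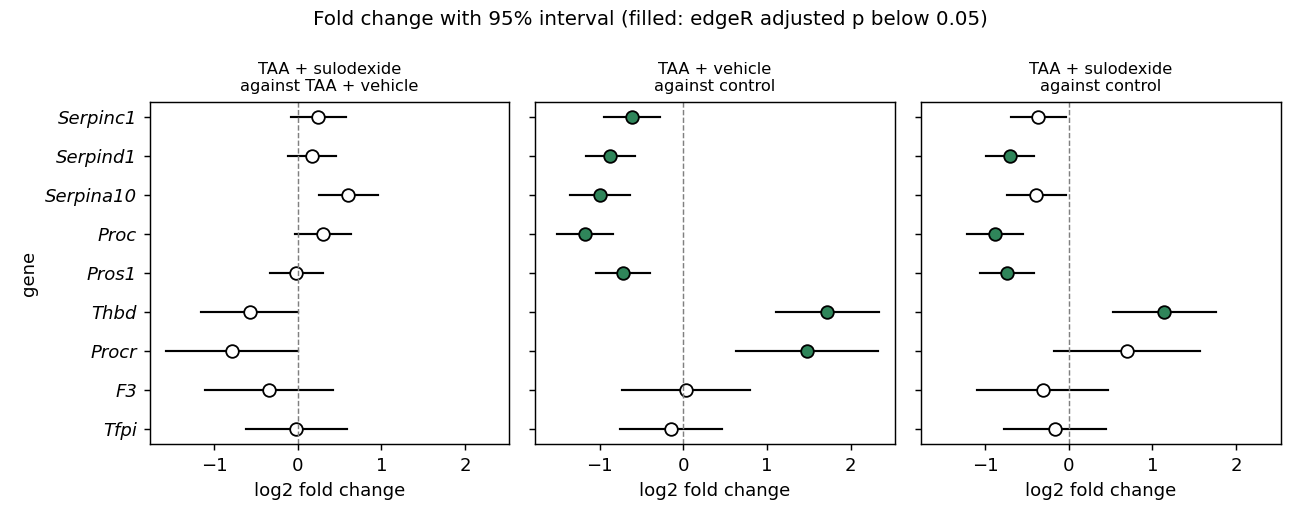
Fitted log2 fold changes (horizontal axes) of the 9 genes with 95% intervals, for TAA with sulodexide against TAA with vehicle, TAA with vehicle against control, and TAA with sulodexide against control. Filled points have an edgeR adjusted p below 0.05: 0, 7 and 4 of the 9 genes. Comparisons share groups of libraries.

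These calls rest in part on the scaling. With library totals in place of TMM factors the median log2 change of all tested genes moved to 0.41, and called genes were 83.3% higher, against 53.1% with TMM. With those totals Serpinc1 had a log2 change of -0.21 (adjusted p = 0.156) and Pros1 of -0.32 (adjusted p = 0.114), so that neither call held, while Proc, Serpind1 and Serpina10 remained lower and Thbd and Procr higher.

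The scaling factor cancels from levels relative to marker genes of the same library, save through a count of 2, scaled with it, added before taking logs. That addition weighs most on genes of few counts, such as Procr. Relative to 12 hepatocyte markers (albumin, transthyretin, apolipoproteins and others), the mean log2 level with vehicle minus that in controls was -0.74 for Proc, -0.55 for Serpina10, -0.43 for Serpind1 and -0.18 for Serpinc1, each without overlap of libraries. For Serpinc1 the groups were barely apart, with -1.86 in vehicle library 2 and -1.839 in control library 2. Of the markers themselves 0 of 12 were higher and 4 were lower, or 3 higher and 2 lower with library totals. Pros1 was lower by 0.29 relative to hepatocyte markers, with overlap, and lower by 0.67 relative to 10 pan-endothelial markers, without overlap. Thbd and Procr were higher relative to the pan-endothelial markers by 1.76 and 1.42. Those markers did not rise in this comparison: 0 of 10 were higher and 1, Ptprb, was lower, with a summed level of 182.8 to 216 CPM with vehicle and 210.6 to 244.2 CPM in controls and none at 0. With library totals 5 of the 10 were called higher and 0 lower. Sinusoidal endothelial markers were higher in 0 of 10 cases and lower in 3. Their summed levels were 323.2 to 424.3 CPM with vehicle and 423.1 to 513.7 CPM in controls, with overlap. Markers of capillary and large-vessel endothelium were higher in 4 of 10 cases and lower in 1. These summed to 152.1 to 264.4 CPM with vehicle and 92.1 to 106.9 CPM in controls. Cholangiocyte markers rose in 9 of 9 cases (220.6 to 530.4 CPM with vehicle, 35.5 to 50.5 in controls), and stellate cell and myofibroblast markers in 10 of 11 (494 to 738 CPM with vehicle, 214 to 246 in controls). Immune cell markers rose as well: 7 of 10 tested of macrophages and monocytes (243.1 to 545.2 CPM with vehicle, 150.3 to 176.2 in controls), 6 of 6 of neutrophils (10.7 to 55.0 and, in controls, 2.25 to 3.01) and 5 of 7 of T, NK and B cells (60.4 to 186.1 and, in controls, 5.96 to 12.3). Mesothelial markers rose in 2 of 4 cases tested (3.26 to 6.62 CPM with vehicle, 1.38 to 2.75 in controls) and platelet markers in 1 of 2 (5.16 to 6.97 and, in controls, 2.24 to 3.63). In controls the neutrophil markers Retnlg and Mmp8, the mesothelial markers Wt1 and Krt14 and the platelet markers Gp6 and Treml1 were at 0 counts, and Krt14 was at 0 in every group. The part of these cell types in the rises of Thbd and Procr was not tested.

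**Figure D3:**
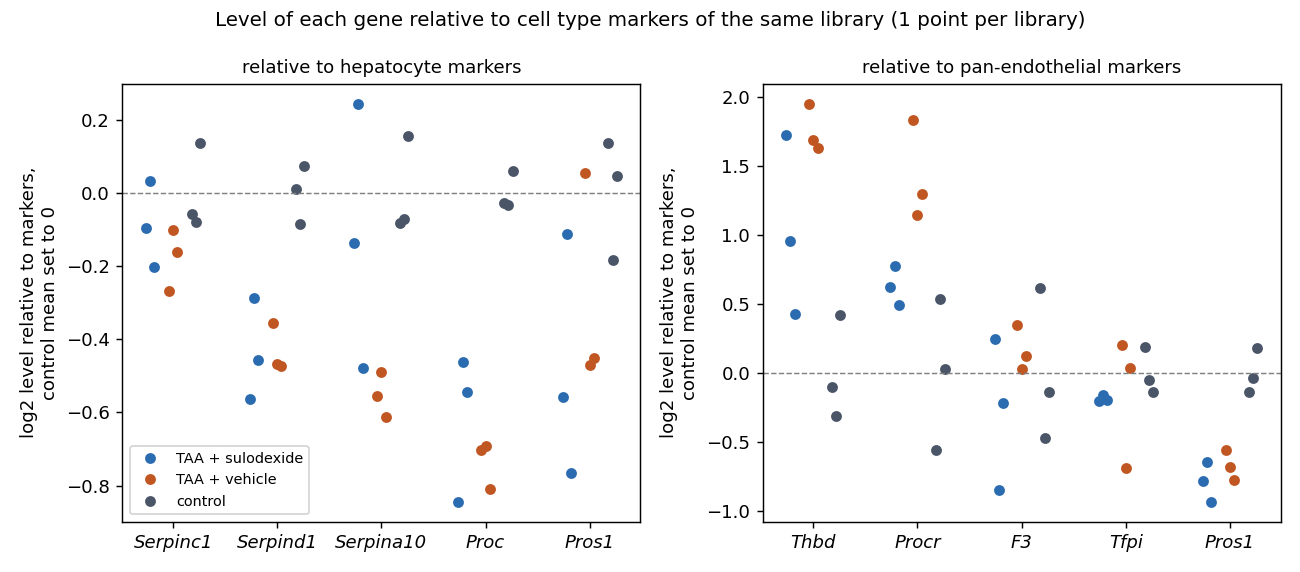
Log2 level of each gene relative to the mean of hepatocyte markers (left) or pan-endothelial markers (right) of the same library, with the mean of the control libraries set to 0 and 1 point per library. Proc, Serpind1 and Serpina10 with vehicle lie below controls, and Thbd and Procr with vehicle lie above controls. Serpina10 with sulodexide lies above vehicle by a narrow margin and overlaps controls.

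Promoters of 6 of the 9 genes were examined, taken from a RefSeq table (GRCm38.p6, 250 bases before and 50 from the start of the gene). Those of Proc, Thbd and Serpina10 were not examined, which does not show that RefSeq lacks them. Of the 6 examined, the 4 below are shown because the 2 heparin cofactors and Pros1 fell together while Procr rose. Capitals mark matches on either strand to short words known for the liver factors HNF4, HNF1, C/EBP and FOXA, the general factors AP-1 and Sp1, and the TATA box. For HNF4 the word was CAAAGTNCA and for C/EBP it was TTGCNNAA. The liver factor HNF1 was searched by its palindrome. For FOXA proteins, which open liver chromatin, the word was TGTTTNC. The stress-responsive AP-1 dimers were searched with TGANTCA. Sp1, common at promoters of housekeeping genes, was searched with GGGCGG. The TATA box was searched as TATAAA, which 13.6% of the 32851 promoters in the table hold. Only 3 of those promoters hold the HNF1 palindrome. Neither word matched in the 4 promoters shown, and so rare a palindrome cannot show that HNF1 sites are absent. The words were chosen with the sequences in view, and matches that run into each other share bases.
Serpind1, chr16:17331121-17331420, plus strand: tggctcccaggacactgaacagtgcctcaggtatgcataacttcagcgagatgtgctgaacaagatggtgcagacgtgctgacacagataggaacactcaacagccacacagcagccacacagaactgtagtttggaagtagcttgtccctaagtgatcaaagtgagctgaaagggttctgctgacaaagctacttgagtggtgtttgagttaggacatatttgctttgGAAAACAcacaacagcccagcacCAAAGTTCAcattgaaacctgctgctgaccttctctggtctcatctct
Serpinc1, chr1:160978333-160978632, plus strand: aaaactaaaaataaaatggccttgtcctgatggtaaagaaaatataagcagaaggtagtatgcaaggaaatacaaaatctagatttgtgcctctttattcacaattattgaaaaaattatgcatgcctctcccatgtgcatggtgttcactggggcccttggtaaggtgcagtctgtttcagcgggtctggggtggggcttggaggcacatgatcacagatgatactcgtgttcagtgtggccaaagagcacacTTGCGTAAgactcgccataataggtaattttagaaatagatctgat
Pros1, chr16:62854057-62854356, plus strand: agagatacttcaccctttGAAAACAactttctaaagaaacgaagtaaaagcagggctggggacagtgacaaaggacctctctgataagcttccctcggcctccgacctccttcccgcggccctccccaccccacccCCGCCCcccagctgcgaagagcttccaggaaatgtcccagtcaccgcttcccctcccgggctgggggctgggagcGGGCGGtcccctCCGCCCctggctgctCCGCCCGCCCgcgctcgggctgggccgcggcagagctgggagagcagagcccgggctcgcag
Procr, chr2:155750967-155751266, plus strand: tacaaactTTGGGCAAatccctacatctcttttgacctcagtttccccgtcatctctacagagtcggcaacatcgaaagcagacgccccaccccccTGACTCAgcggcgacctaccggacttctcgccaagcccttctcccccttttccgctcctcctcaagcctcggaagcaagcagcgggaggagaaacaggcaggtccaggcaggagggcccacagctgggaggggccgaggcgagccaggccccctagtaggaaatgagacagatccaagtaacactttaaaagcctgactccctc
Serpind1 held the HNF4 word, which 1.41% of the 32851 promoters in the table hold, 2 bases after its start, with a FOXA word (20.5% of promoters) just before it. Serpinc1 held 1 match, to the C/EBP word (10.8% of promoters). The Pros1 promoter was 66.7% G and C, against 47.7% for Serpind1, 41.3% for Serpinc1 and a median of 52.7% over the table. It held 5 matches to the Sp1 word, which 35.7% of promoters hold, and 1 to the FOXA word. Procr held a C/EBP word and an AP-1 word (7.81% of promoters) and was 58.3% G and C. Words marked in the promoters of changed genes were also found in those of genes that did not pass: F3, whose promoter was 70.3% G and C, held 2 AP-1 words and 3 Sp1 words, and both promoters of Tfpi held an Sp1 word. A match describes the letters only. Among 15 genes of liver transcription factors 2 rose and 4 fell with vehicle against control, and 9 did not pass. Cebpa and Foxa2 belong to families whose words were searched, and neither had the smallest p of the genes that fell. Of those that fell, Cebpa, which encodes a C/EBP protein, had 186 ± 5.26 CPM with vehicle and 396 ± 36.6 CPM in controls (edgeR adjusted p = 6.04e-05). Foxa2 had 15.5 ± 1.39 CPM with vehicle and 26.8 ± 1.93 CPM in controls and fell (adjusted p = 0.00214), a call that was lost with library totals (adjusted p = 0.072). Hnf4a, named after its values were seen, had 749 ± 106 CPM with vehicle and 752 ± 64.7 CPM in controls (adjusted p = 0.975). The part of these factors in the changes of the 9 genes was not tested.

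The clotting factors made in hepatocytes are set beside these genes. Of 13 procoagulant factors of hepatocytes, 10 fell with vehicle and 0 rose, with a median log2 change of -0.89, where the 3 serpins had -0.87. Klkb1, which encodes prekallikrein, fell to 0.210 times the control level (adjusted p = 1.97e-06), the factor IX gene F9 to 0.379 times (adjusted p = 6.6e-06) and the factor VII gene F7 to 0.391 times (adjusted p = 4.97e-05). Among 22 tested genes for other anticoagulants, cofactors and thrombin receptors 7 rose and 7 fell. Proz, which encodes the protein Z that serves the Serpina10 product as cofactor, had 216 ± 29.8 CPM with vehicle and 459 ± 33.9 CPM in controls (adjusted p = 0.000146). Gas6, a relative of protein S that activates the same family of receptors, rose 4.49-fold, to 140.5 ± 34.4 CPM with vehicle against 31.3 ± 1.87 CPM in controls (adjusted p = 1.47e-05). Anxa5, whose product binds exposed phospholipid and blocks clotting on it, rose 4.26-fold (adjusted p = 4.69e-06). The count of falls among these genes was 3 with library totals, and that of rises was 4 when at least 30 counts in 3 libraries were required. Among 10 fibrinolysis genes there were 5 rises and 3 falls, or 1 fall with library totals. Plat, which encodes tissue plasminogen activator, had 15.4 ± 6.84 CPM with vehicle and 0.235 ± 0.130 CPM in controls. That control level is very low, and how far it sets the size of the change was not tested. The log2 change was 5.96 (SE 0.59) for Plat and 3.26 (SE 0.25) for Anxa2, which encodes a cell-surface receptor for tissue plasminogen activator. Both passed the test, with edgeR adjusted p of 4.14e-05 for Plat and 7e-06 for Anxa2.

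**Figure D4:**
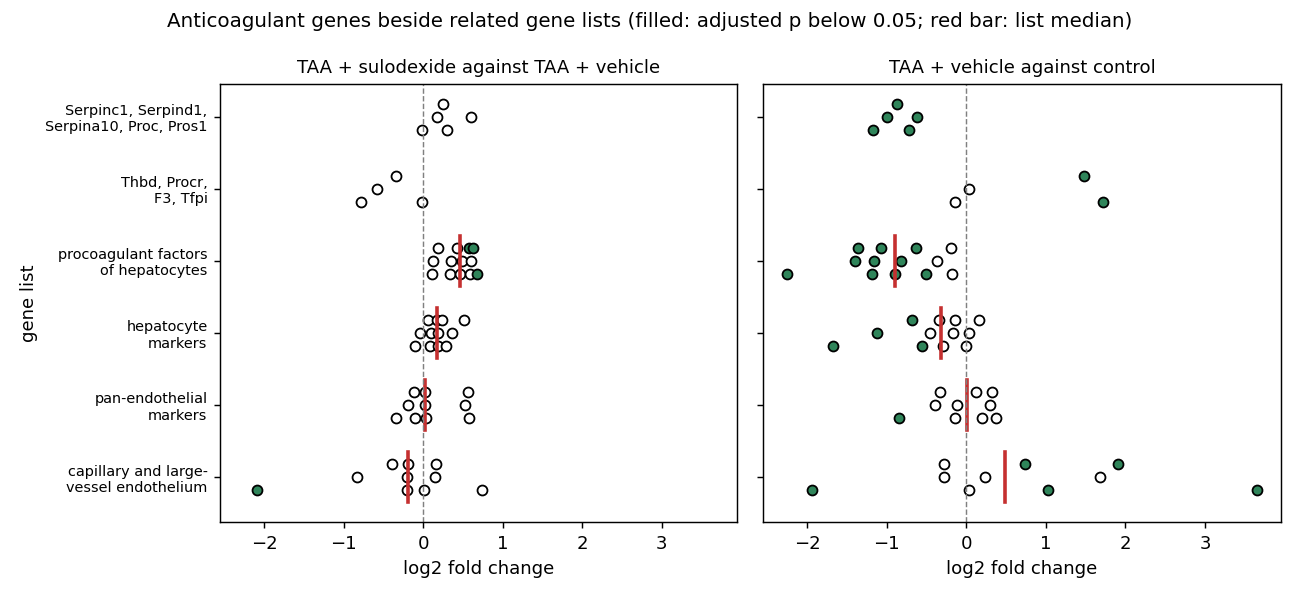
Log2 fold changes (horizontal axes) of single genes, 1 point per gene, for TAA with sulodexide against TAA with vehicle (left) and TAA with vehicle against control (right). Filled points have an adjusted p below 0.05 and red bars are list medians, which for procoagulant factors lie at 0.46 on the left and -0.89 on the right.

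Sulodexide was then compared with vehicle under continued TAA, which asks whether the 9 genes, those of the 2 heparin cofactors among them, changed with the drug. None of the 9 genes passed edgeR's test, with 0 higher and 0 lower, where 4.8% of all tested genes were called, 1.39% higher and 3.41% lower. At an unadjusted p below 0.05 there was 1, Serpina10, where 2786 of all 13701 tested genes were below it. DESeq2 called 1, also Serpina10, where it called 1142 of the 13701 genes. The median log2 change of the 9 was -0.02, against 0.02 over all tested genes. Libraries of 2 of the 9, Serpina10 and Serpinc1, did not overlap between the groups, as was so for 24.2% of tested genes.

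The genes of the 2 heparin cofactors had intervals that reach from just below to just above equal levels. Serpinc1 had 1259, 1364.5 and 1357 CPM in sulodexide libraries 1 to 3, against 940.1, 1195 and 1223 CPM with vehicle. Each sulodexide library was above each vehicle library, by a fold of 1.19 with an interval from 0.944 to 1.49 (adjusted p = 0.395). Serpind1 had 404, 485 and 507 CPM with sulodexide and 393, 412 and 439 CPM with vehicle. These overlapped, and the fold was 1.12 (0.920 to 1.37; adjusted p = 0.516). Relative to hepatocyte markers the difference was 0.09 on the log2 scale for Serpinc1 and -0.004 for Serpind1.

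Serpina10 came closest to the threshold. It had 234, 303 and 215 CPM with sulodexide and 148, 175 and 172 CPM with vehicle, so the lowest sulodexide library was above the highest vehicle library. The fold was 1.52 (1.19 to 1.95), with an adjusted p of 0.0571 in edgeR, 0.039 with no filter on low counts and 0.0138 in DESeq2, and it ranged from 0.0138 to 0.197 over 20 alternatives. Relative to hepatocyte markers it was higher by 0.43 on the log2 scale. The groups were barely apart there, with -4.62 in sulodexide library 3 and -4.633 in vehicle library 2. Its cofactor gene Proz had 282 ± 30.3 CPM with sulodexide and 216 ± 29.8 CPM with vehicle (adjusted p = 0.141).

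Within the protein C pathway no change passed the test. Proc had 225, 290.5 and 322 CPM with sulodexide and 209, 238 and 235 CPM with vehicle, a fold of 1.23 (0.974 to 1.55; adjusted p = 0.306), with sulodexide library 1 inside the vehicle range. Pros1 had 35.5, 47.9 and 35.7 CPM with sulodexide and 45.6, 35.9 and 38.8 CPM with vehicle, a fold of 0.989 (0.793 to 1.23; adjusted p = 0.967). The groups overlapped for both. Thbd had 17.5, 12.5 and 7.90 CPM with sulodexide and 22.6, 16.2 and 17.9 CPM with vehicle. It varied more with sulodexide than with vehicle, with an SD of 38.1% of the mean with sulodexide and 17.8% with vehicle, a spread that was not tested, and the fold was 0.671 (0.449 to 1.001; adjusted p = 0.247). Procr had 1.42, 1.97 and 1.45 CPM with sulodexide, from 24, 34 and 22 counts, and 3.82, 1.97 and 2.55 CPM with vehicle. Its fold was 0.581 (0.336 to 1.01; adjusted p = 0.252), and sulodexide library 2 lay just above vehicle library 2. Both receptor genes have upper bounds near 1, and their levels relative to pan-endothelial markers differed by -0.72 for Thbd, with overlap, and by -0.79 for Procr, without. Pan-endothelial markers were called in 0 of 10 cases (202 to 255 CPM in sum with sulodexide, 182.8 to 216 with vehicle). Sinusoidal endothelial markers were also called in 0 of 10 cases (386.2 to 545.4 CPM in sum with sulodexide, 323.2 to 424.3 with vehicle). Of the capillary and large-vessel markers 0 of 10 rose and 1 fell, with summed levels of 150.5 to 157.3 CPM with sulodexide and 152.1 to 264.4 CPM with vehicle. That gene, Cd34, had 3.87 ± 0.424 CPM with sulodexide and 16.5 ± 5.45 CPM with vehicle (adjusted p = 0.00532). Cholangiocyte markers fell in 8 of 9 cases (44.6 to 115.2 CPM with sulodexide, 220.6 to 530.4 with vehicle) and stellate cell and myofibroblast markers in 5 of 11 (333 to 353 CPM with sulodexide, 494 to 738 with vehicle), or 2 without sulodexide library 2 or vehicle library 3, and the part of these cell types in the values of Thbd and Procr was not tested.

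For the initiation arm, F3 had 3.43, 1.91 and 2.76 CPM with sulodexide and 4.09, 2.76 and 3.42 CPM with vehicle. The fold was 0.788 (0.464 to 1.34; adjusted p = 0.633). Tfpi had 5.45, 6.90 and 6.12 CPM with sulodexide and 8.01, 3.62 and 7.02 CPM with vehicle, a fold of 0.988 (0.65 to 1.5; adjusted p = 0.98). Both genes overlapped between the groups. F3 was counted from 33 to 58 reads with sulodexide and from 45 to 76 with vehicle, and its SD was 28.2% of the mean with sulodexide and 19.3% with vehicle.

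Some of the neighbouring clotting genes did pass in this comparison. Of the 13 procoagulant factors 3 rose with sulodexide and 0 fell. F9 had 141 ± 10.96 CPM with sulodexide and 88.7 ± 2.78 CPM with vehicle (adjusted p = 0.00913). F13b, the carrier subunit of factor XIII, had 132 ± 9.35 CPM with sulodexide and 85.9 ± 10.04 CPM with vehicle (adjusted p = 0.0181). Klkb1 had 41.7 ± 5.51 CPM with sulodexide and 28.1 ± 3.44 CPM with vehicle (adjusted p = 0.038). The count was 1 without sulodexide library 2, vehicle library 1 or vehicle library 3, and 1 when only the 6 libraries compared were fitted, while DESeq2 called 6. F9 held in each of these, and Klkb1 was also lost with library totals (adjusted p = 0.1) and without sulodexide library 3 or any control library (adjusted p from 0.0568 to 0.0831). Of the other anticoagulant, cofactor and receptor genes 0 of 22 rose and 3 fell, or 1 without sulodexide library 2, vehicle library 1 or vehicle library 3. Gas6 fell to 0.382 times the vehicle level (adjusted p = 0.00672), Anxa5 to 0.587 times (adjusted p = 0.0164) and F2rl1, which encodes a protease-activated receptor, to 0.151 times (adjusted p = 0.0164). F2rl1 was scarce, at 0.464 ± 0.0690 CPM with sulodexide and 3.12 ± 1.97 CPM with vehicle. It lost its call without sulodexide library 2 or 3 or without vehicle library 1 or 3. Anxa5 lost its call without sulodexide library 2 or without vehicle library 1 or 3 (edgeR adjusted p from 0.0638 to 0.0703). Whether the 9 genes responded differently from these neighbours was not tested. Fibrinolysis genes fell in 2 of 10 cases, Plat by 3.24 on the log2 scale (SE 0.44) and Anxa2 by 1.40 (SE 0.22). Plat had 1.62 ± 0.794 CPM with sulodexide and 15.4 ± 6.84 CPM with vehicle. Of the 15 genes of liver transcription factors 2 rose with sulodexide, 0 fell and 13 did not pass. Cebpa had 279 ± 26.2 CPM with sulodexide and 186 ± 5.26 CPM with vehicle (edgeR adjusted p = 0.0214). Foxa2 had 28.5 ± 5.80 CPM with sulodexide and 15.5 ± 1.39 CPM with vehicle (edgeR adjusted p = 0.0137). Leaving out vehicle library 3 ended the call of Foxa2 (adjusted p = 0.0605). That of Cebpa was lost with library totals (adjusted p = 0.0605) or without sulodexide library 2 or 3 or vehicle library 1 or 3 (adjusted p from 0.0551 to 0.087).

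Sulodexide-treated TAA livers were last set against control livers, a comparison that shares its libraries with both others. Proc, Pros1 and Serpind1 fell, Thbd rose and the other 5 genes did not pass. The 1 rise and 3 falls compare with 11.2% and 11.4% of all tested genes, and 22.6% in either direction. Libraries of 5 of the 9 did not overlap between the groups, as in 42% of tested genes. Proc lay at 0.544 times the control level with sulodexide (0.431 to 0.687; adjusted p = 0.00248), where vehicle had 0.443 times. Pros1 lay at 0.600 times (0.481 to 0.749; adjusted p = 0.00497), where vehicle had 0.607 times, and Serpind1 at 0.614 times (0.503 to 0.750; adjusted p = 0.00361), where vehicle had 0.547 times. For each of these 3 genes every sulodexide library was below every control library.

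Thbd was 2.21-fold higher than in controls (1.44 to 3.39; adjusted p = 0.0145), though sulodexide library 3, at 7.90 CPM, was close to control library 3, at 7.02 CPM. The call was lost without control library 1 (adjusted p = 0.0503) or control library 2 (adjusted p = 0.0597). Procr had a fold of 1.62 (0.881 to 2.97; adjusted p = 0.232). Serpinc1 lay at 0.775 times the control level (0.617 to 0.974; adjusted p = 0.1), with no overlap of libraries, and Serpina10 at 0.763 times (0.597 to 0.975; adjusted p = 0.104), with overlap. Serpina10 passed without sulodexide library 2 (adjusted p = 0.0424). F3 had a fold of 0.805 (0.469 to 1.38; adjusted p = 0.561) and Tfpi of 0.894 (0.585 to 1.37; adjusted p = 0.716). Of the 13 procoagulant factors 9 fell and 0 rose here, or 2 rose with library totals.

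Likeness of pattern over the 9 libraries was measured as the root mean square difference between mean-centred log2 CPM, among genes of at least 5 CPM on average, with smaller values for closer patterns. The nearest to Serpind1 were Qprt (0.0632), the prothrombin gene F2 (0.0724) and Igfbp4 (0.0752). Serpinc1 was nearest to Grtp1 (0.072), Mthfd1 (0.073) and Ccnh (0.0868). Proc was nearest to Rdh7 (0.0726), the complement gene C8g (0.101) and Fxyd1 (0.101), Pros1 to Ikbkb (0.0421), Rnf213 (0.0763) and Cdhr5 (0.116), and Serpina10 to Mif4gd (0.0917), Ppat (0.0992) and Itih3 (0.116). The scarcer genes each had a nearest neighbour farther off than the nearest of any of these genes. The nearest lay at 0.204 for Thbd (Map4k4, then Robo1 and Ctps) and 0.227 for Procr (Akna, then Mob3a and Slc1a4). For F3 it lay at 0.192 (Tfcp2l1, then Tnk2 and Tfrc) and for Tfpi at 0.109 (Exoc3l2, then Cnpy4 and Rasgrp3). Counting noise adds to such distances at low counts, and Procr and F3 lie below the 5 CPM asked of neighbours. The part of low counts in these distances was not tested.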

How the data were processed

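Total RNA of mouse livers was made into mRNA libraries, per the labels' protocols. For 9 libraries the authors deposited raw counts for each gene beside FPKM, and both were taken unchanged. HISAT2 2.0.4 and StringTie 1.3.0 with the builds mm10 and GRCm38.p4 are named in the submitters' processing notes, with no role or order. Which program counted reads, and whether by strand, is not given in the sources used here.

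Of 34745 genes, 13701 passed filterByExpr (minimum count 10), holding 99.868% or more of every library's counts. All 9 libraries were fitted in edgeR 4.0.16 (R 4.3.3) with TMM factors and 1 mean per group, without a block. Groups were contrasted by edgeR's quasi-likelihood test with robust estimation and Benjamini-Hochberg adjustment. The common dispersion was 0.0409, with 6 residual degrees of freedom. Alternatives used DESeq2 1.42.0, limma 3.58.1 on log2(FPKM + 0.1) and log2(FPKM + 1), other scalings and filters, the replicate number as block, and each library left out. The fit was tested on simulated data.

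The 9 genes and all lists were chosen with earlier results of these data known. Named context genes are up to 3 per list and comparison by p. Where a symbol had several IDs, the ID with more counts was used. Lists are described by counts and medians. Gene positions are those of the deposited table, and exons and principal transcripts come from GENCODE M21 (GRCm38). The labels do not say that a replicate number marks a shared cage, day or litter, so samples were treated as unpaired. Deviations of samples with the same number correlated only weakly. Reads and transcripts were not analysed here. A result on 1 listed gene is not reported here.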

Additional observations from a re-analysis of the deposited data

How the results depend on the processing

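With TAA and vehicle against control, 3 of the 9 genes fell in place of 5 with scaling by library totals and with limma on log2(FPKM + 0.1) or log2(FPKM + 1), while 2 rose in each. Those FPKM keep the scaling by library totals, which is how these alternatives are built. Over all tested genes, sulodexide against vehicle gave 658 calls, 1142 with DESeq2, 383 with only the 6 libraries compared and from 137 to 833 with single libraries left out. The share of higher genes among these calls was 29% with TMM and 11.6% with library totals, where the median log2 change of all genes was -0.12. For sulodexide against control it was 49.6% and 81.4%, with a median of 0.27. For sulodexide against vehicle 1 of the 9 genes, Serpina10, rose with no filter, with DESeq2 and with the replicate block (adjusted p = 0.0397), and the cause was not tested. Deviations of libraries with the same replicate number correlated across genes from -0.07 to 0.142, so the numbers are not taken to pair the libraries, and not every library was most like its own number. The block changed no other count of the 9 genes by over 1.5 times. When single libraries were left out, the rises among the 9 genes with sulodexide against control ranged from 0 to 1 and the falls from 3 to 4. The rises with vehicle against control stayed at 2, the falls at 5 and both counts for sulodexide against vehicle at 0. Of 540 refits of single genes, 0 turned a called direction, 8 lost a call, 4 gained one and 20 changed the sign of an uncalled value, in Tfpi, F3 and Pros1 only. Level per length changed with the transcript length used, by 5.8 times for Tfpi and 2.16 times for Serpinc1. Procr had the fewest reads of the 9 genes, from 9 to 71 per library, and how far depth limits its values was not tested.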

Other observations

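Ratios of 2 genes within a library do not depend on scaling between libraries. In FPKM, Serpinc1 over Serpind1 was 1.11, 0.9995 and 0.953 with sulodexide, 0.851, 1.03 and 0.991 with vehicle, and 0.763, 0.802 and 0.836 in controls. All 6 TAA libraries were above all 3 controls, and the sulodexide and vehicle libraries overlapped. F3 over Tfpi was 2.21, 0.970 and 1.58 with sulodexide, 1.78, 2.67 and 1.71 with vehicle, and 2.18, 1.18 and 1.60 in controls, with overlap of all groups. Thbd over Procr was 12.5, 6.43 and 5.53 with sulodexide, 6.01, 8.32 and 7.09 with vehicle, and 8.66, 3.16 and 7.92 in controls. Proc over Pros1 was 18.6, 17.8 and 26.4 with sulodexide, 13.4, 19.4 and 17.7 with vehicle, and 20.2, 25.1 and 22.8 in controls, where every vehicle library was below every control library. No test was made of these ratios.

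Among the 22 tested genes for other anticoagulants, cofactors and thrombin receptors, 5 were higher and 3 lower with sulodexide against control. The 3 lower genes were Proz, Ggcx and Serpine2, and each was also lower with vehicle against control and was not called with sulodexide against vehicle. Ggcx, the enzyme that carboxylates vitamin K-dependent proteins such as protein C, protein S and protein Z, had 38.6 ± 4.92 CPM with sulodexide, 33.9 ± 3.72 with vehicle and 62.2 ± 2.06 in controls. Its edgeR adjusted p was 0.00395 for sulodexide against control, 0.000382 for vehicle against control and 0.451 for sulodexide against vehicle. Serpine2, a heparin-accelerated thrombin inhibitor known from tissues, had 6.63 ± 4.28 CPM with sulodexide, 11.2 ± 4.85 with vehicle and 54.9 ± 8.64 in controls. Its edgeR adjusted p was 0.00461 for sulodexide against control, 0.00628 for vehicle against control and 0.451 for sulodexide against vehicle. Vkorc1, which encodes the enzyme that recycles vitamin K and is named after its values were seen, did not pass in any of the 3 comparisons (edgeR adjusted p from 0.64 to 0.973).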
